A study of Triticum aestivum with 12 samples.

Results

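Roots that grew in normal potassium (K) while the rest of the same root system was in low K (Sp. NK) were compared with roots of plants that had normal K on both sides (C. NK). The comparison used 6 of the 12 arrays of the study, 3 of Sp. NK and 3 of C. NK. Both groups were roots of the K-efficient wheat genotype Tongzhou916. The seedlings were 3 weeks old, had been raised in normal K and spent 5 days in a split-root system, in which the roots of a plant hang in 2 separate compartments. The sampled compartment held 1.0 mmol/L K2SO4 in both groups. The other compartment held 0.005 mmol/L K2SO4 for Sp. NK and 1.0 mmol/L for C. NK, so that the groups differ only in the supply to roots that were not sampled. Each array is described as a biological replicate of 20 plants. The other 6 arrays are the low-K side of split plants (Sp. LK, 3 arrays) and plants with low K on both sides (C. LK, 3 arrays). The sources used here do not state whether a Sp. NK array and a Sp. LK array with the same number were made from the same seedlings.

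K is taken up by roots through high-affinity transporters and channels, and transporters of the HAK family are known to be induced in roots that run short of K. A root in a split system receives the nutrient status of the whole plant through the shoot, so that genes can change on a side whose own supply is constant. Glutathione S-transferases (GSTs) join glutathione to reactive compounds, calcium-binding proteins and transcription factors relay signals, and pathogenesis-related proteins of family 5 (PR5, thaumatin-like proteins) are made in defence and in several stresses.

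The arrays were Affymetrix Wheat Genome Arrays. Each probe set reads a transcript, or several that resemble each other. Wheat has 3 related subgenomes, and near-identical copies of a gene can share a probe set. Signals below are on the linear scale of the MAS 5.0 algorithm, scaled to a common mean on each array, and fold changes are log2 of Sp. NK over C. NK. The brighter probe sets are the 26541 of 61115 with a mean log2 signal of 7 or more, a linear signal of 128. A call at the study thresholds needs a fold change above 1.5 and a p under 0.05 without adjustment. On each array 30.4% to 33.8% of signals lay under 32. The standard error of the log2 fold change had a median of 0.19 among the brighter probe sets and of 0.43 among all. Only 1273 probe sets have a gene symbol, so that most are described here by their values and, where the study's own list has one, by functional category, and not by ID. Sucrose synthase, one of 7 array controls with probe sets at both ends of the transcript, had a 3' minus 5' difference of 3.89, 3.71 and 4.20 (log2) in Sp. NK, against 4.51, 4.29 and 4.46 in C. NK (two-sided exact permutation p = 0.1, the smallest that 3 arrays against 3 allow). The other 6 controls overlapped between the groups. The part of RNA quality in the results below was not tested.

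GSTs, calcium-binding proteins and transcription factors of the study's list were among the genes with a higher signal in Sp. NK. The study chose that list on these same arrays, so that the naming of these classes is not independent evidence. The excess of higher over lower genes was found at high signals. Among the brighter probe sets, 236 were higher in Sp. NK at the study thresholds, which is 0.889% of those tested, and 121 were lower, which is 0.456%. The median fold change of these was 1.72 for the higher and 0.608 for the lower ones. Over all probe sets 1092 (1.79%) were higher and 969 (1.59%) lower. No probe set passed an adjusted p of 0.05 in limma on all 12 arrays (smallest adjusted p = 0.658), and an unadjusted p under 0.05 was found for 2594 (4.24%), of which 889 were brighter (3.35% of the brighter ones).

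Under a mean log2 signal of 5, 603 probe sets were higher and 611 lower, and from 5 to 7 the counts were 253 and 237. They were 87 and 67 from 7 to 8, 108 and 50 from 8 to 10, 35 and 3 from 10 to 12, and 6 and 1 above. At a log2 signal of 10 or more, 41 were thus higher and 4 lower in Sp. NK. The median over all brighter probe sets was -0.00 (log2), and 49.0% of them were positive. Since the deposited arrays were scaled to a common trimmed mean, a general shift cannot be seen in these values. After centring each array on its median, 202 brighter probe sets were higher and 144 lower. The balance depended on single arrays, most on Sp. NK replicate 1. Without Sp. NK replicate 1 the brighter calls were 222 higher and 217 lower, and those at 10 or more were 39 higher and 18 lower. Leaving out any other array of the 2 groups left 62.4% to 71.3% of the brighter calls higher. At 10 or more, leaving out Sp. NK replicate 2 gave 40 higher and 3 lower, and leaving out Sp. NK replicate 3 gave 45 and 17. Leaving out an array of C. NK gave 72 and 23 for replicate 1, 29 and 8 for replicate 2, and 41 and 10 for replicate 3.

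**Figure D1:**
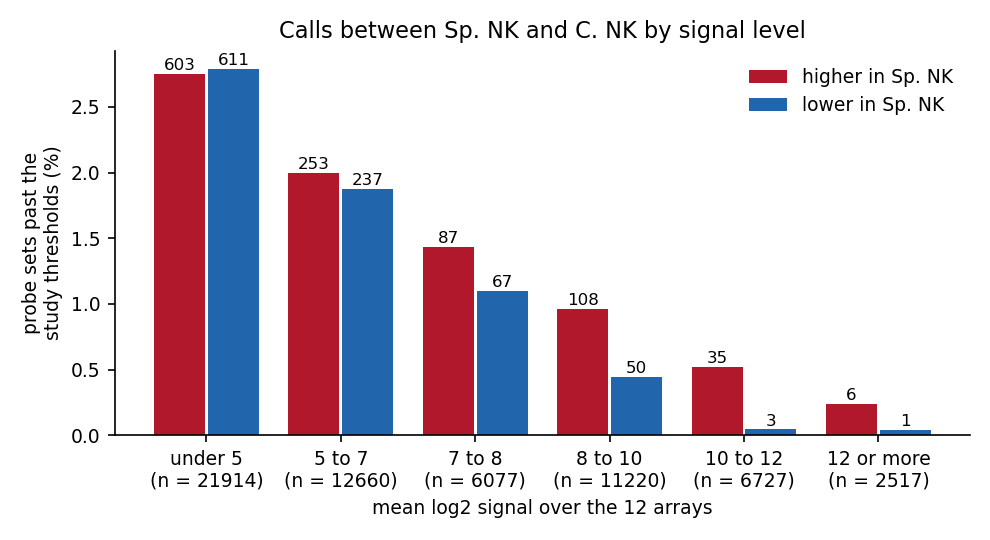
Share of probe sets past the study thresholds (y axis, percent) by mean log2 signal over the 12 arrays (x axis), higher in Sp. NK (red, left) or lower (blue, right), with the number of probe sets above each bar. Counts in both directions are near equal at low signals (603 and 611) and unequal from 10 to 12 (35 and 3).

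All 3 Sp. NK arrays lay above all 3 C. NK arrays in 171 of the 236 higher probe sets, and below them in 82 of the 121 lower ones. Such a separation was found upward in 4.03% and downward in 4.11% of all brighter probe sets. Arrays of the same replicate number deviated together from their group means, and a fit of these 6 arrays in which that number was a block called 407 brighter probe sets higher and 163 lower at the study thresholds. At the same thresholds, the kind of test named in the study's methods shared only 132 of the 236 and 48 of the 121 with the fit of 12 arrays. The fit with the block shared 226 of the 236 and 108 of the 121. In this fit 21 probe sets passed an adjusted p of 0.05, all of them higher in Sp. NK (0.0344% of all tested), and 0 passed downward (3462 in either direction at an unadjusted p under 0.05, 5.66%). With the same block on all 12 arrays no probe set passed an adjusted p of 0.05. The pairing was itself taken from these arrays and not from the design, so the 21 calls hold only under it.

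These 21 probe sets had log2 fold changes of 0.91 to 2.30 (median 1.24) and adjusted p of 0.0277 to 0.0467 with the block. The difference between arrays of 1 pair ranged from 0.74 to 3.15. By the way they were chosen the 3 pairs lie close together. All 21 were separated on every array, and 18 also passed the study thresholds in the fit of 12 arrays. Their mean log2 signals were 8.06 to 11.90, and 5 of them are in the study's list. The calls depended on replicate pair 2. Without it no probe set passed an adjusted p of 0.05 (2611 at an unadjusted p under 0.05, among them all 21), while 187 passed without pair 1 and 97 without pair 3, each time with all 21 among them. The 21 were chosen on these same pairs, so that their return in part of them is not independent evidence.

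**Figure D2:**
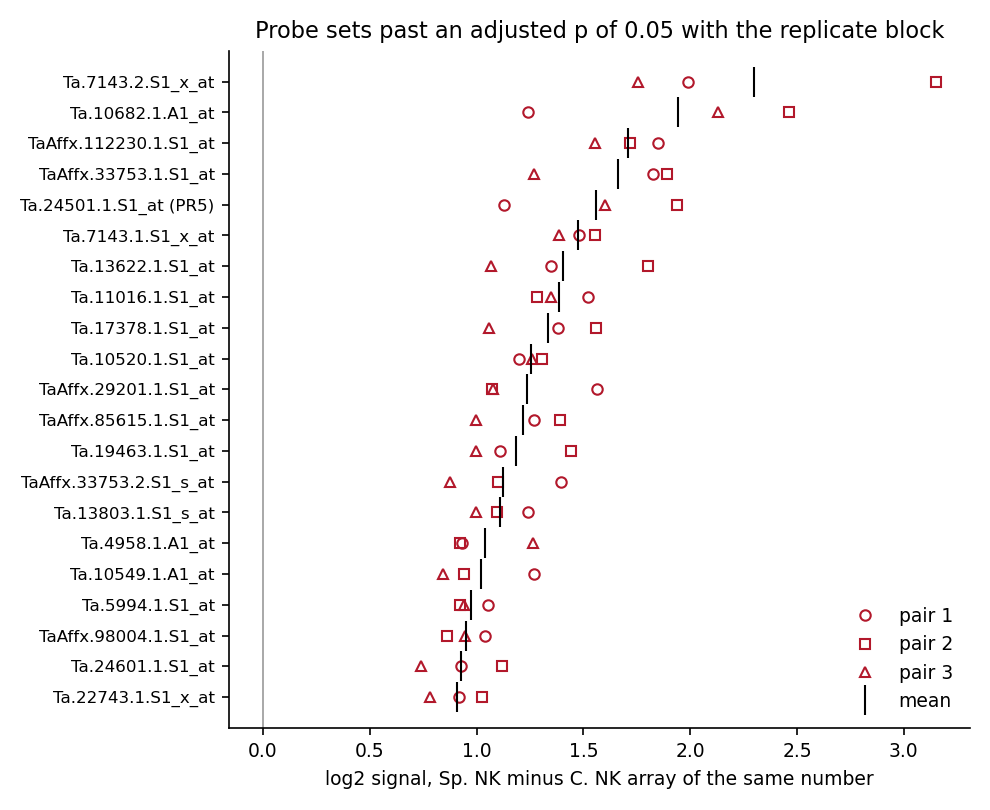
Log2 signal of each Sp. NK array minus the C. NK array of the same number (x axis) for the 21 probe sets past an adjusted p of 0.05 with the replicate block (y axis, ordered by mean). Symbols are the 3 pairs and the bar is their mean. Every difference lies above 0, from 0.74 to 3.15.

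LOC543292, annotated as PR5, was the only one of the 21 with a gene symbol. Its signal was 920, 586 and 794 in Sp. NK, against 420, 153 and 261 in C. NK. The groups did not overlap, and replicate 2 was the lowest array in both. The log2 fold change was 1.56 and passed an adjusted p of 0.05 with the block. It did not pass the study thresholds in the fit of 12 arrays, where its SE was 0.92.

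The probe set that changed most among the 21 has no gene name in the files. It had signals of 1655, 690 and 1264 in Sp. NK, against 417, 77.7 and 374 in C. NK (log2 fold change 2.30). Another probe set of the same transcript cluster was 1.47 higher. A second cluster was also read by a pair of the 21, with log2 fold changes of 1.66 and 1.13, and the first of these was measured at 2795, 1915 and 2313 in Sp. NK, against 788, 515 and 958 in C. NK. Probe sets of 1 cluster can share sequence, so that each pair is not a count of separate genes.

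Calcium ion binding was a category of the study's list with 3 probe sets. The one that is among the 21 had signals of 1633, 1261 and 1492 in Sp. NK, against 568, 518 and 586 in C. NK. That is 1462 ± 188 in Sp. NK and 557 ± 35.3 in C. NK (SD, n = 3 each), with a log2 fold change of 1.39. The calcium-binding gene LOC542847 was read by 2 probe sets, of which only 1 is in the list. The listed one gave 854, 972 and 1138 in Sp. NK, against 477, 550 and 742 in C. NK, and the log2 fold changes of the 2 probe sets were 0.76 and 0.79. In neither gene did the groups overlap. The remaining listed probe set was 0.82 higher, while other brighter probe sets of its cluster had log2 fold changes of 0.37 and 0.30 and did not pass.

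GSTs were represented by 4 probe sets. The signal of LOC542991 was 5658, 4771 and 4192 in Sp. NK, against 2904, 3084 and 2065 in C. NK (log2 fold change 0.87, SE 0.20). LOC542993 was at 672, 568 and 508 in Sp. NK, against 322, 337 and 294 in C. NK, and LOC542992 at 6068, 6297 and 4726 in Sp. NK, against 3238, 4063 and 3864 in C. NK. All 4 GST probe sets of the list passed the study thresholds and were separated on every array, with log2 fold changes from 0.61 to 0.87. Other probe sets of the same genes changed less. The brighter second probe sets of LOC542993 and LOC542992 had log2 fold changes of 0.20 and 0.31 and did not pass, and all 4 listed probe sets are of a kind (_x_at) that can also read related transcripts. LOC100037538, whose probe set belongs to the same cluster as that of LOC542992, was 0.67 higher, with signals of 4040, 5125 and 2934 in Sp. NK and 1836, 2757 and 2988 in C. NK. Here the groups overlapped.

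Transcription factor activity held 7 probe sets, of which 6 passed the study thresholds, with log2 fold changes of 0.78 to 1.33. LOC100037634 had signals of 382, 357 and 335 in Sp. NK, against 181, 143 and 152 in C. NK (log2 fold change 1.18), and its other probe set was 0.78 higher. LOC100037599 was 0.87 and 0.85 higher on its 2 probe sets. The probe set with the largest change of the category (1.33) has no symbol and was among the 21 with the block. The category thus holds 2 genes read by several probe sets, and its count is not one of independent genes.

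Of the other categories, mitochondrion (4 of 5 probe sets passed), plastid (5 of 5), iron ion binding (2 of 4) and cytoplasmic membrane-bounded vesicle (9 of 10) were described by the list as higher in Sp. NK. The mitochondrion and vesicle categories hold probe sets of the same transcript cluster, so these are not counts of separate genes. Only 3 of the 5 mitochondrial, 4 of the 5 plastid and 3 of the 4 iron ion binding probe sets were brighter. The mitochondrial probe set that is one of the 21 had signals of 2245, 2295 and 2131 in Sp. NK, against 931, 1194 and 1187 in C. NK (log2 fold change 1.02). LOC543182 (WZF1, a zinc finger protein), assigned to the plastid, was at 3683, 2866 and 3471 in Sp. NK, against 1827, 1630 and 2296 in C. NK, 0.81 higher. Over the whole list of 37 probe sets, 33 passed the study thresholds, all 37 were separated on every array, and the median log2 fold change was 0.82. The study chose this list on these same arrays, so that neither count is independent evidence of its direction.

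Of 793 brighter probe sets with a symbol, 15 (1.89%) were higher and 2 (0.252%) lower at the study thresholds, beside 0.889% and 0.456% of all brighter ones. In the study's list, which was chosen on these arrays, were 8 of the 15 and neither of the lower ones, so that 7 higher ones lay outside it. LOC780636, for which the annotation gives no function, was at 200, 254 and 248 in Sp. NK, against 127, 91.8 and 156 in C. NK (log2 fold change 0.93), while the other probe sets with this symbol had log2 fold changes of 0.74 (brighter) and -0.46 (below the limit of the brighter ones) and did not pass. LOC780582 (avnla), LOC100037579 and LOC542872 were 0.59, 0.66 and 0.67 higher. The 2 lower probe sets, named after their values were seen, were LOC606342 (RPS29, a protein of the small ribosomal subunit) and LOC542820. RPS29 varied widely, with 332, 763 and 67.6 in Sp. NK, against 756, 786 and 567 in C. NK (log2 fold change -1.43), and its other brighter probe set had a log2 fold change of 0.15. LOC542820 was at 1533, 874 and 1126 in Sp. NK, against 2251, 1520 and 1551 in C. NK (-0.60). In both the groups overlapped.

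The largest separated falls were in probe sets with no gene symbol. The largest had signals of 245, 72.0 and 91.7 in Sp. NK, against 395, 430 and 625 in C. NK (log2 fold change -2.01). Another was at 268, 74.6 and 121 in Sp. NK, against 576, 283 and 303 in C. NK (-1.45). Of the 55 called probe sets chosen for description, 17 passed the study thresholds whichever of the 6 arrays was left out. Both of these falls were among them, as was 1 probe set each of GSTs LOC542991 and LOC542993 and of the transcription factor gene LOC100037634. The other called probe set of LOC100037634 was not. The 55 were chosen from the study's list, by size or by the block. The share that would pass among all called brighter probe sets was not counted, so the 17 do not describe the calls at large.

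Potassium transport probe sets did not pass. LOC543226, assigned by the study to potassium ion transport, had signals of 234, 204 and 234 in Sp. NK, against 248, 285 and 158 in C. NK (log2 fold change 0.00, SE 0.32). The same gene was at 369, 371 and 154 in Sp. LK, against 738, 1055 and 699 in C. LK. The split effect differed between the sides by 1.56, past an unadjusted p of 0.05 but not an adjusted one. The study had picked this gene for its fall on the low-K side, using these same arrays. That fall (log2 fold change -1.56) accounts for the difference between the sides, which is therefore not independent evidence of an effect specific to 1 side. The primers that the study used for this gene in quantitative PCR are given 5′ to 3′. They belong to that assay and do not show which sequence the array probes read.
Forward primer, LOC543226: tgccaggacaaaccatacagc
Reverse primer, LOC543226: gccttccatagagcatgacca
The second potassium transport probe set was at 79.8 ± 22.1 in Sp. NK and 107 ± 31.4 in C. NK (SD, n = 3 each), and the oxygen transport probe set of LOC543086 had a log2 fold change of -0.00. Neither difference exceeded the spread between arrays.

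The same genes were examined on the low-K side, where Sp. LK and C. LK share no array with the comparison. Both comparisons were taken from the same fit, however, which gives each probe set a single estimate of spread. A probe set with a small estimate passes more easily on both sides, so the shared calls below are not independent evidence. How much of the overlap this accounts for was not tested. Of the 236 probe sets higher in Sp. NK, 57 (24.2%) also passed the study thresholds upward in Sp. LK against C. LK, beside 2.62% of all brighter probe sets, and 148 were positive. They were 8.19% of the 696 probe sets higher in Sp. LK. Of the 121 lower ones 8 (6.61%) were lower in Sp. LK, beside 1.39% of all. A further 6 (4.96%) went the other way and were higher in Sp. LK, beside 2.62% of all. GST LOC542991 was at 5039, 6020 and 5187 in Sp. LK, against 3204, 1922 and 3099 in C. LK (log2 fold change 1.01), and GST LOC542993 was 1.71 higher. All 4 GST probe sets passed on the low-K side, whereas 0 of the 7 transcription factor probe sets did. This contrast depended in part on C. LK replicate 1. Without that array the GST probe sets had log2 fold changes of 0.78 to 2.04 and all passed. Those of the transcription factors were then 0.25 to 0.68, and a probe set of LOC100037634 passed.

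The GST calls on the low-K side thus held without C. LK replicate 1. Low-K values of the transcription factors and of the 21 probe sets called with the block depended on this array. It was seen to stand apart after the values were examined. On this array all 21 probe sets called with the block were higher than on the other C. LK arrays, and 18 were higher than on any Sp. NK array. Among all brighter probe sets 26.4% were highest on it within C. LK, and 22.3% exceeded every Sp. NK array. The calcium-binding probe set among the 21 was at 673, 679 and 821 in Sp. LK, against 1674, 160 and 462 in C. LK. PR5 was at 1027, 1108 and 414 in Sp. LK, against 724, 21.8 and 367 in C. LK. The 21 were also lowest on C. LK replicate 2 in all cases, which was so for 40.0% of the brighter probe sets.

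With all arrays, 11 of the 21 were higher in Sp. LK and 1 passed the study thresholds, which was PR5 (log2 fold change 2.12). Without C. LK replicate 1 all 21 were positive and 15 passed, beside 3.24% of all brighter probe sets. Leaving out C. LK replicate 2 instead gave 2 positive and 2 past the thresholds downward, and leaving out replicate 3 gave 8 positive. For the 236, the number also higher on the low-K side was 84 (35.6%) when replicate 1 of C. LK was left out, 41 (17.4%) for replicate 2 and 62 (26.3%) for replicate 3. Whether the 21 changed on the low-K side could thus not be told, while the count for the 236 exceeded each time the share of all brighter probe sets, which was 1.61% to 4.41%. The difference between the sides passed an adjusted p for no probe set (smallest adjusted p = 0.982, 815 brighter probe sets at an unadjusted p under 0.05, 3.07%).

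**Figure D3:**
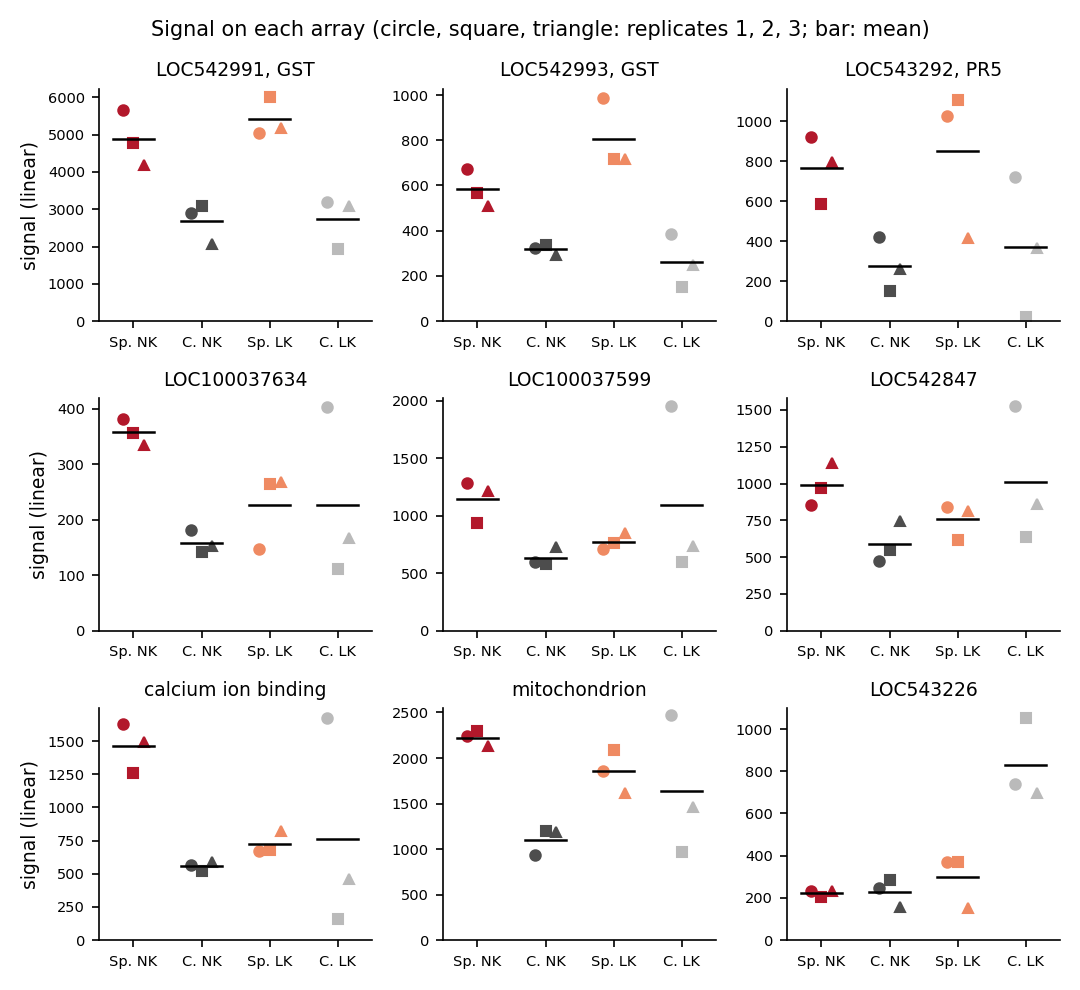
Linear signal (y axis, from 0) on each of the 12 arrays for 9 probe sets, with Sp. NK left of C. NK and Sp. LK left of C. LK; circle, square and triangle are replicates 1, 2 and 3, and the bar is the mean. Sp. NK is above C. NK in the first 8 panels and not in LOC543226, and C. LK replicate 1 is far above the other C. LK arrays in LOC100037634, LOC100037599, LOC542847 and the calcium ion binding panel.

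**Figure D4:**
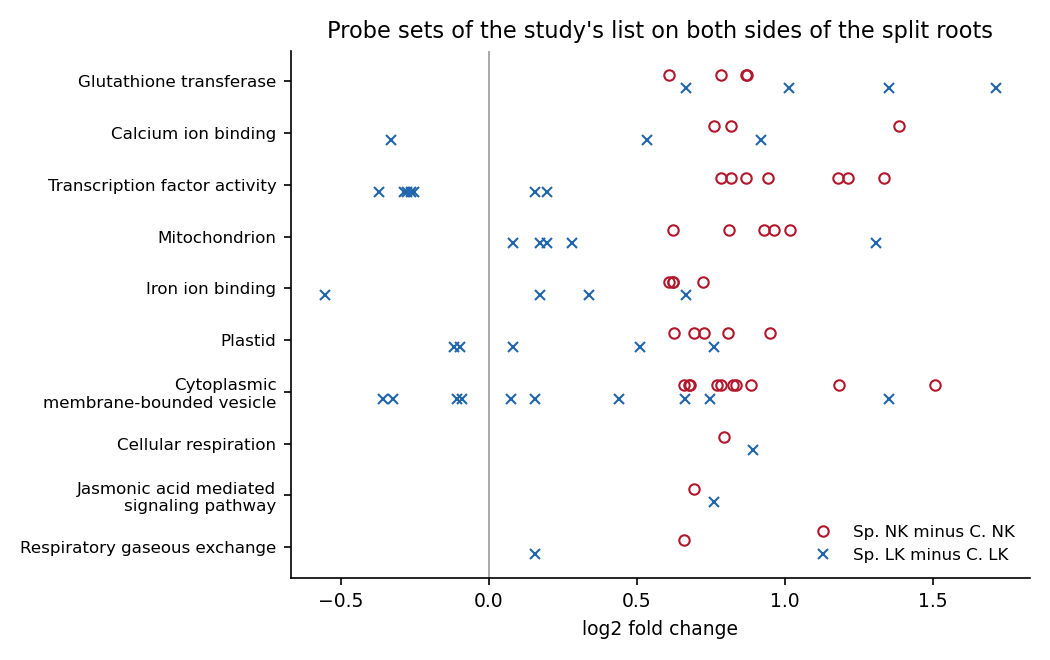
Log2 fold change (x axis) of the 37 probe sets of the study's list by category (y axis), for Sp. NK minus C. NK (circles) and Sp. LK minus C. LK (crosses), and a probe set with 2 categories is drawn in both. All 37 circles lie above 0, since the list was chosen for it, and 24 of 37 crosses do.

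Genes were also grouped by function from the annotation. Of 10 brighter probe sets of peroxide and glutathione enzymes, 3 were higher at the study thresholds and 8 were positive (median log2 fold change 0.24), beside 0.889% higher and 49.0% positive among all brighter probe sets. The 3 are GSTs of the study's list, chosen on these arrays, so that their count is not independent evidence. Their summed signal was 20844, 20548 and 17460 in Sp. NK, against 14257, 15862 and 13175 in C. NK, and its direction is largely that of the listed GSTs. The summed signals did not overlap between the groups in 6 of 12 lists (two-sided exact permutation p = 0.1 each, the smallest possible). Single brighter probe sets did so in 4.03% upward and 4.11% downward. The sums were higher in Sp. NK for this list and the dehydrins, and lower for tubulins, translation, ion transport and grain proteins. Only 1 of 10 dehydrin and 0 of 16 grain probe sets were brighter. After quantile normalization the median of brighter translation probe sets moved from -0.10 to -0.01, and that of ion transport from -0.24 to -0.08. Other members of the peroxide and glutathione list were near 0, among them GSTZ1, a zeta-class GST, with log2 fold changes of -0.05, 0.00 and 0.28, and PER1, a peroxiredoxin, with 0.15 and -0.18. CAT1, a catalase gene, was called only on a dim probe set (51.7, 37.4 and 56.9 in Sp. NK, against 6.13, 13.2 and 2.75 in C. NK) and had a log2 fold change of -0.37 on another.

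In the defence list 0 of 5 brighter probe sets passed the study thresholds, beside 0.889% higher and 0.456% lower among all brighter ones. Beside PR5 these were WGA2 (log2 fold change 0.20), GLU1A (0.08) and XIP-I, a xylanase inhibitor, on 2 probe sets (0.02 and -0.03). Rab15, a dehydrin of water deficit and abscisic acid response, was higher on a probe set just below the limit of the brighter ones, at 197, 173 and 212 in Sp. NK, against 88.6, 24.8 and 134 in C. NK. Its brighter probe set had a log2 fold change of 0.53 and did not pass. Of the 3 GA20ox genes, which act in gibberellin synthesis, 2 were higher on dim probe sets. LOC543327 was at 67.9, 67.1 and 70.1 in Sp. NK, against 33.2, 24.4 and 13.7 in C. NK, and LOC543325 was 1.79 higher on 1 probe set and had a log2 fold change of -0.43 on the other.

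Histones, tubulins and ion pumps passed in 0 cases, beside 0.889% higher and 0.456% lower among all brighter probe sets. Of 17 brighter core histone probe sets 15 were negative (median -0.17), and all 10 tubulin probe sets were negative (median -0.13), but 7 of 10 after quantile normalization. Of all 26541 brighter probe sets 13527 were negative. The histone list reads 5 gene symbols and the tubulin list 6, so these are not counts of separate genes. The summed tubulin signal was 117998, 112905 and 116370 in Sp. NK, against 123657, 127255 and 131456 in C. NK. The plasma membrane H+-ATPase, which energizes ion uptake, had log2 fold changes of -0.24, -0.26 and -0.10. Phytosiderophore synthesis gene DMAS1, of the iron uptake of grasses, had -0.29, -0.44 and -0.39, with signals of 20854, 13231 and 23094 in Sp. NK, against 26238, 21880 and 24875 in C. NK on its brightest probe set. Markers of green tissue were present at a summed signal of 7651, 10007 and 7351 in Sp. NK, against 8595, 11194 and 9130 in C. NK, mostly from plastid rbcL, and no brighter one passed. No storage protein or inhibitor of the grain list was among the brighter probe sets.

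**Figure D5:**
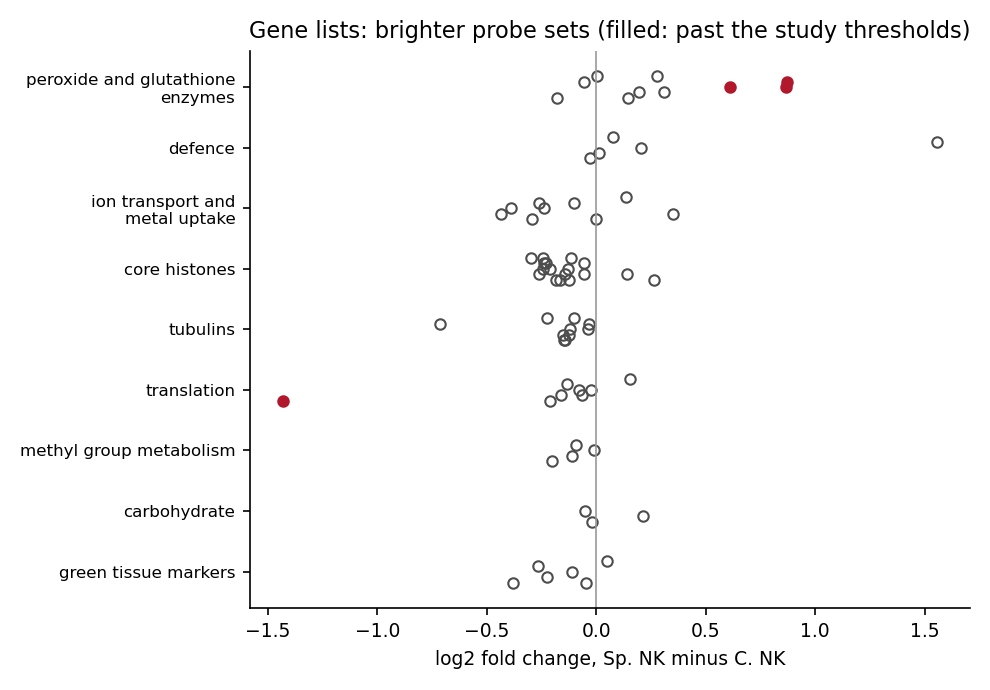
Log2 fold change of Sp. NK minus C. NK (x axis) for the brighter probe sets of 9 gene lists (y axis); filled symbols passed the study thresholds. The 3 filled symbols on the right are GSTs (0.61 to 0.87) and the one on the left is RPS29 (-1.43).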

How the data were processed

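Roots of 4 treatments were measured on 12 Affymetrix Wheat Genome Arrays, 3 per group. The authors used the MAS 5.0 algorithm (GeneSpring) for normalization, and the deposited values are log2 signals, 1 per probe set and array, with the same trimmed mean of about 500.0 on each array; no raw intensities, detection calls or counts were used here. The number of arrays limits the precision. Whether the arrays of a group came from separate cultures is stated only as biological replicates.

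In R 4.3.3 with limma 3.58.1, 175 control probe sets were left out and 61115 fitted (means of 4 groups, 12 arrays, eBayes with a variance trend, contrast Sp. NK minus C. NK), with adjusted p of Benjamini and Hochberg over all 61115 and calls at a fold change above 1.5 with p under 0.05 before adjustment, as in the study. Over brighter probe sets the deviations from the group means of Sp. NK and C. NK arrays of one number correlated at 0.34, 0.21 and 0.35. Among arrays of different numbers, Sp. NK replicate 1 with C. NK replicate 2 gave 0.12, and Sp. NK replicate 2 with C. NK replicate 3 gave 0.04. The others gave -0.40 to -0.15. The labels do not say what the replicate numbers mark. They were taken to pair the arrays from these correlations and not from the design, and the 6 arrays were also fitted with the number as a block. Alternatives were the 6 arrays alone, no trend, the methods' t-test, a filter, 2 rescalings, a floor at 32, other limits and each array left out. The fit was tested on simulated data.

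Probe sets described singly were those of the study's list for Sp. NK, the 10 largest separated rises and falls with 1 symbol (10 rises taken, no fall qualified), the 5 largest without, those past an adjusted p in either fit, other probe sets of these genes, and 3 transport probe sets. The members and lists were chosen with earlier results of these data known. Symbols came from the platform annotation (1273 probe sets, 771 symbols, 1272 probe sets matched to the RefSeq gene table of IWGSC CS RefSeq v2.1). Of 20 lists matched by words few found a gene, so lists by symbol were written after the annotation had been seen.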

Additional observations from a re-analysis of the deposited data

How the results depend on the processing

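Counts of brighter probe sets at the study thresholds, 236 higher and 121 lower, ranged from 222 to 424 and from 104 to 217 when 1 array of Sp. NK or C. NK was left out, with 424 and 215 without C. NK replicate 1 and 217 lower without Sp. NK replicate 1. The block of replicate numbers on the 6 arrays gave 407 higher. There were 142 higher with no variance trend, 138 with a floor at 32, 149 from a log2 signal of 8 and 51 at a fold change above 2. There were 52 lower with the methods' t-test, 232 from a log2 signal of 6, 54 from 8 and 18 at a fold change above 2. Over all probe sets the floor gave 497 higher and 437 lower. The share of calls that were higher was 66.1%, 76.6% with the methods' t-test and 50.6% without Sp. NK replicate 1, and 58.4% after median centring.

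Probe sets past an adjusted p of 0.05 numbered 0 in the fit of 12 arrays, with or without the block, and 0 with the methods' t-test, 21 with the block of replicate numbers on 6 arrays, 1 with no variance trend and 4 with the floor. None of these last 5 was bright. With the block and only brighter probe sets, chosen after seeing the data, there were 14, and the block without 1 pair of arrays gave 187 without pair 1, 0 without pair 2 and 97 without pair 3. The difference between the sides had 4 with the floor and 0 in the other fits. Without C. LK replicate 1, also chosen after seeing the data, 296 brighter probe sets were higher and 117 lower. The causes were not tested. Of the 55 probe sets described singly and called, 31 to 55 kept their call under each alternative and none reversed. The 3 arrays per group and signals near background limit what can be seen, since the standard error under a log2 signal of 5 was 0.99 at the median.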
